A study of Mus musculus with 28 samples.

Results

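The 10 genes described here are the D cyclins (Ccnd1, Ccnd2, Ccnd3), their kinases (Cdk4, Cdk6), the inhibitor p27 (Cdkn1b) and the INK4 family (Cdkn2a, Cdkn2b, Cdkn2c, Cdkn2d), taken by name from the deposited tables. All 10 were present among the 35267 genes of one bulk RNA table and the 35429 genes of the other. Of the 9448 genes in the single-cell table for days 1 and 3 the set had 7, and of the 11662 genes for day 5 it had 8. Cdkn2a and Cdkn2b were not listed in either single-cell table, and Cdkn2c was listed for day 5 only. The data were 18 bulk RNA libraries, single-cell RNA from 4 samples and Ty1 chromatin immunoprecipitation from 2 samples, all from C57Bl/6 mouse bone marrow cells. MOZ-TIF2 cells (n = 2) were transduced with MOZ-TIF2 bearing a Ty1 tag; this fusion protein arises in acute myeloid leukaemia. Differentiated cells (n = 2) carried the empty vector, and both were sorted on GFP and grown for 4 days with cytokines. Fresh cells (n = 2) were c-Kit+ marrow cells as isolated, with no vector. The EYA1+HOXA9 line and the HOXA9 line were transduced c-Kit+ marrow cells passed through 4 rounds of replating in methylcellulose. Each line was kept for 72 h in 5 µM benzarone, a compound known to block EYA phosphatase activity, or in DMSO (n = 3 per group). Single cells came from the replated MOZ-TIF2 line after 1, 3 or 5 days in 5 µM benzarone or 1 or 5 days in DMSO, with 1 sample a condition and with both day 5 conditions in 1 sample. Nothing in the labels says that replicates were separate cultures, so each p-value speaks only of how far these libraries scatter, and that scatter may be technical.

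D cyclins pair with CDK4 or CDK6 in the G1 phase and phosphorylate the retinoblastoma protein, which frees E2F factors to switch on the genes of DNA synthesis. INK4 proteins bind CDK4 and CDK6 and keep the cyclins away, while p27 binds whole cyclin-kinase complexes, most of all those of CDK2. Cdkn2a and Cdkn2b lie side by side, and Cdkn2a also encodes ARF, which stabilises p53 by blocking MDM2. In blood cells CDK6 is known for its role in myeloid leukaemia, and Cdkn2a is kept silent in stem cells by polycomb complexes.

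Bulk libraries held 12397486 to 34606046 counts, and single-cell conditions held 826 to 1662 cells with 32360740 to 41508470 unique molecular identifiers (UMIs) over the listed genes. Hoxa9, a check of the labels, read 1402 ± 216 CPM (counts scaled to library size) in the EYA1+HOXA9 line with benzarone and 382 ± 108 CPM in DMSO, and 211 ± 12.8 and 203 ± 33.1 CPM in the HOXA9 line (SD, n = 3 each). Eya1 read 154.9 ± 19.1 and 237 ± 37.4 CPM in the EYA1+HOXA9 line, against 3 and 0 counts over the HOXA9 groups with benzarone and DMSO. Differentiated cells were rich in mast cell RNA: the 10 marker genes summed to 58430 to 86890 CPM there, against 39.9 to 54.8 CPM in MOZ-TIF2 cells and 334 to 366 CPM in fresh cells. Kit itself averaged 34.97 ± 8.49 CPM in MOZ-TIF2, 4136 ± 188 CPM in differentiated and 159.5 ± 30.1 CPM in fresh cells (SD, n = 2 each). Erythroid markers summed to 4.56 to 5.05 CPM in MOZ-TIF2, 74.1 to 74.7 CPM in differentiated and 5722 to 8863 CPM in fresh cells. The B lymphoid sum was 5.25 to 5.52 CPM in MOZ-TIF2, 0.43 to 1.18 CPM in differentiated and 644 to 714 CPM in fresh cells. In bulk RNA fewer cells of a type and less RNA per cell cannot be told apart. Granulocyte progenitor genes summed to 8971 to 14840 CPM in MOZ-TIF2, 44.4 to 254 CPM in differentiated and 6635 to 9120 CPM in fresh cells, and stem and progenitor genes, Kit among them, to 41.3 to 57.4, 5633 to 5699 and 351 to 369 CPM in the same groups. Late neutrophil genes summed to 1009 and 5282 CPM in the 2 MOZ-TIF2 libraries, 39.2 to 79.7 CPM in differentiated and 20720 to 22530 CPM in fresh cells. So the 2 MOZ-TIF2 libraries, which differed from each other in Ccnd3, Cdkn1b, Cdkn2a, Cdkn2b, Cdkn2c and Cdkn2d, also differed in these genes. The part that these other cell types had in the results on MOZ-TIF2, differentiated and fresh cells was not tested.

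Where the tagged MOZ-TIF2 was found on the genome was compared over the 10 genes, with the authors' peak lists of 3676 and 4564 intervals on GRCm38. A peak present in both lists (overlapping by at least 1 bp) lay within 5 kb of 5 of the 10 genes: Ccnd3, Cdk4, Cdk6, Cdkn1b and Cdkn2d. Of 14213 genes with at least 10 counts in 2 of the MOZ-TIF2, differentiated or fresh libraries, 26.6% had such a peak, so the set's count is a description only. The widest lay over the start of Cdk6 and spanned 4350 bp in replicate 1 (chr5:3341002-3345351) and 4900 bp in replicate 2 (chr5:3340552-3345451), where the median widths of the lists were 600 and 700 bp. At Cdkn1b one peak covered the start site (chr6:134919902-134921251 in replicate 1 and chr6:134919852-134922751 in replicate 2), and a further shared peak stood 1327 and 1127 bp past the gene's end. At Cdk4 the peaks began 217 and 67 bp inside the gene (chr10:127063752-127064451 and chr10:127063602-127064201). At Ccnd3 the peaks covered the second of 2 listed start sites (chr17:47593452-47594901 and chr17:47593452-47595551), far inside the longest form of the gene. Cdkn2d had its peaks over the listed start (chr9:21290902-21291551 and chr9:21290452-21292001). The nearest shared peak to Cdkn2c was 9946 and 9496 bp away. Within 50 kb no peak of either list was found at Ccnd1, Ccnd2, Cdkn2a or Cdkn2b, so the D cyclins differed among themselves, with peaks at Ccnd3 alone. Replicate 2 carries, in its label, the catalogue number of the acetylated histone antibody instead of the one given for replicate 1, and the lists hold no input comparison or score. Which antibody was used was not tested.

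The 250 bases before the outermost start site, from RefSeq on GRCm38.p6, are shown for Cdk4, Cdkn1b, Cdkn2a, Cdkn2b and Cdkn2c. Cdk4 and Cdkn1b have a shared Ty1 peak within 1 kb of that start, and Cdkn2a, Cdkn2b and Cdkn2c have none there. The peak overlaps the printed window at Cdkn1b but not at Cdk4, where it lies past the start. Of the 10 genes 8 have a promoter in that table, and Ccnd1 and Ccnd2 have no entry. Capitals mark matches on either strand to the E-box CACGTG, the GC box GGGCGG, the CCAAT box CCAAT and the E2F sites TTTGGCGC and TTTCCCGC. Matches of different motifs may share bases, and a match is a run of letters, not a site shown to be used. The windows, each read 5′ to 3′ on the gene's strand, are chr10:127063285-127063534 (plus) for Cdk4, chr6:134920151-134920400 (plus) for Cdkn1b, chr4:89294620-89294869 (minus) for the upstream start of Cdkn2a, chr4:89311033-89311282 (minus) for Cdkn2b and chr4:109666757-109667006 (minus) for Cdkn2c.
Cdk4: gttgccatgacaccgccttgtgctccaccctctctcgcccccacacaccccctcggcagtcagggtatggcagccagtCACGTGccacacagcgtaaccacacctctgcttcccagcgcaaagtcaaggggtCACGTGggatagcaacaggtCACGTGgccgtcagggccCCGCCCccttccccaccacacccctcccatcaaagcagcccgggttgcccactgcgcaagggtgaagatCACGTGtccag
Cdkn1b: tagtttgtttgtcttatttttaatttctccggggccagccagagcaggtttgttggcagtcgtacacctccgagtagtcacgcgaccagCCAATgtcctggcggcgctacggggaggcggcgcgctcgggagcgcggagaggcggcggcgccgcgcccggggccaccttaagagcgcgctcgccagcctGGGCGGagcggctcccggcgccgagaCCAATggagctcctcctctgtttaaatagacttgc
Cdkn2a: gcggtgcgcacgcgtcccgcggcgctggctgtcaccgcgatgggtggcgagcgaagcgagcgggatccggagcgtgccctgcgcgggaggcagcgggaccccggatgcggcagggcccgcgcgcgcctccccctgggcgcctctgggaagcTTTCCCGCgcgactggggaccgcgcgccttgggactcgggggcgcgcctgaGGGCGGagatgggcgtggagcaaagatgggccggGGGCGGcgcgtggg
Cdkn2b: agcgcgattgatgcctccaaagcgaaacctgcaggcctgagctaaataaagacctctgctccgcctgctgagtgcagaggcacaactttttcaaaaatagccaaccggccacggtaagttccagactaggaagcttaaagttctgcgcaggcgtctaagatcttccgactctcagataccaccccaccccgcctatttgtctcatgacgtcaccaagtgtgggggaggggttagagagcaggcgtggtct
Cdkn2c: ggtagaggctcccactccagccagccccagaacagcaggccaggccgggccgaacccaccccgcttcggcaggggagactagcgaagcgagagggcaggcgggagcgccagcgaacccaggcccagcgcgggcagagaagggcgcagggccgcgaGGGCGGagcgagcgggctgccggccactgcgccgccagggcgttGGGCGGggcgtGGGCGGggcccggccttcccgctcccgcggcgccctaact
Cdk4 held 4 E-boxes, a motif bound by MYC and its partners, and 6.02% of the 32851 promoters in the table held at least 1. Cdkn1b held 2 CCAAT boxes (33.8% of promoters held 1 or more) and 1 GC box (32.7%). The upstream promoter of Cdkn2a held 2 GC boxes and 1 match to TTTCCCGC (0.895% of promoters), Cdkn2c held 3 GC boxes and Cdkn2b none of the motifs searched. CG pairs numbered 13 at Cdk4, 28 at Cdkn1b, 40 at Cdkn2a, 12 at Cdkn2b and 29 at Cdkn2c, against a median of 6 over all promoters.

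MOZ-TIF2 cells were compared with fresh marrow cells, and with differentiated cells that had been through the same culture with an empty vector. MOZ-TIF2 cells stood apart from both by very low Ccnd1 and Cdkn2c, and differentiated cells stood apart from both by high Ccnd2, Cdkn2a and Cdkn2b. Ccnd3, Cdk6 and Cdkn2d were not called by edgeR in any of the 3 comparisons with all libraries in the fit. With edgeR's quasi-likelihood test and an adjusted p below 0.05, 2 of the 10 genes were lower in MOZ-TIF2 than in fresh cells and none was higher (23.7% of all 15224 genes tested were called, 11.3% higher and 12.4% lower). Against differentiated cells 5 were lower and none higher (29.5% called, 13.3% higher and 16.2% lower). Between differentiated and fresh cells 4 rose and 1 fell (40.7% called, 21.0% higher and 19.7% lower). These comparisons share libraries, so they are not independent of each other. The median log2 difference of the 10 genes was -0.06, -1.64 and 0.45 in that order, beside 0.00, 0.03 and -0.03 over all genes.

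**Figure D1:**
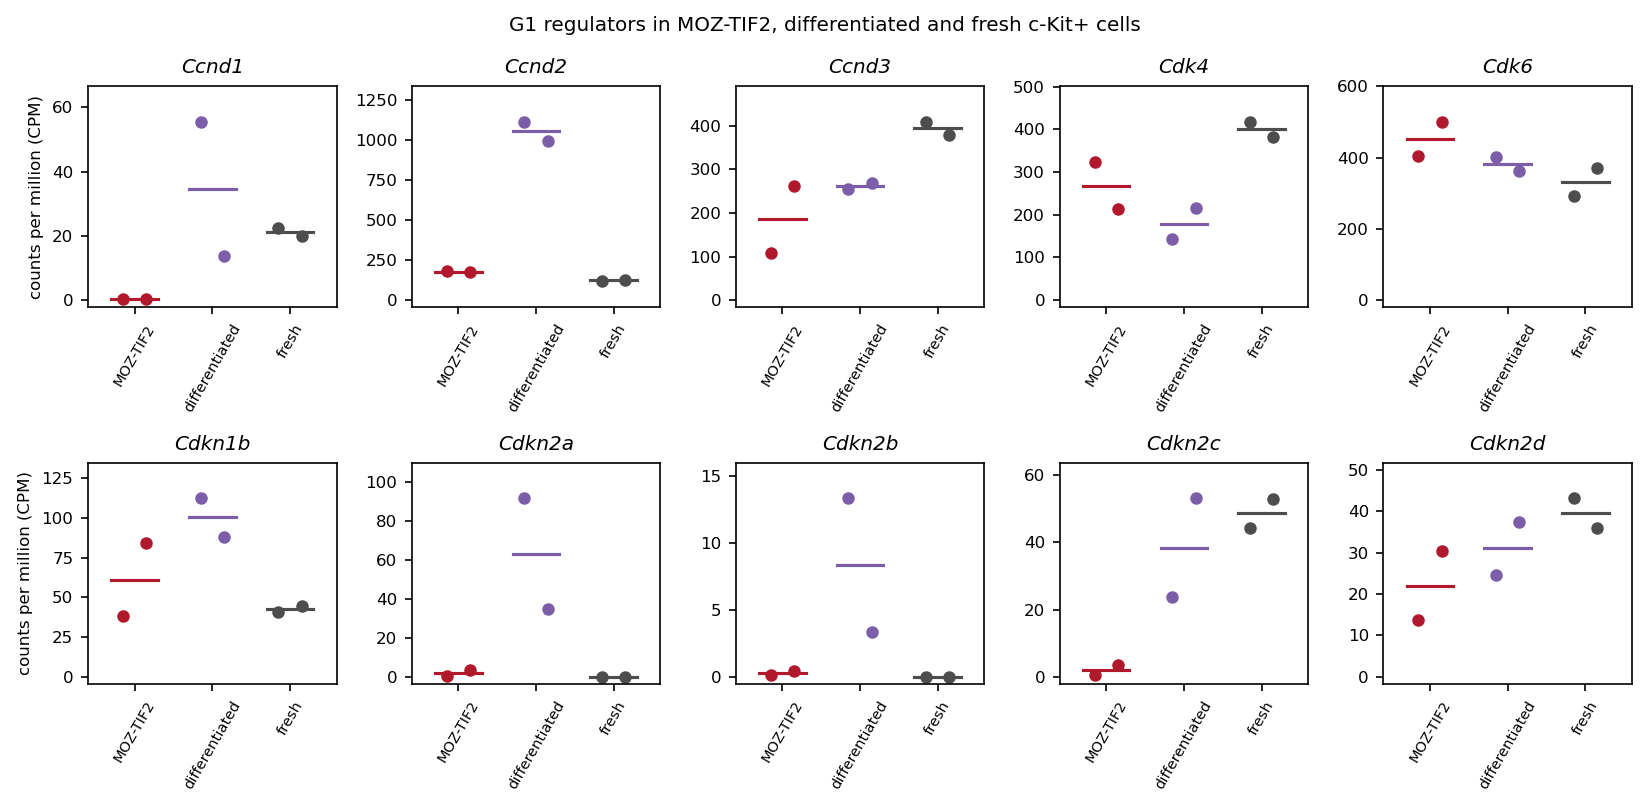
CPM (counts scaled to library size, vertical axis, linear, each gene on its own scale) of the 10 genes in MOZ-TIF2, differentiated and fresh cells. Points are the 2 libraries of a group and horizontal lines their mean; Ccnd1 and Cdkn2c lie near 0 in MOZ-TIF2 cells, and Cdkn2a and Cdkn2b are high in differentiated cells alone.

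Ccnd1, the cyclin that most cell types raise on growth factor signals, read 0.41 and 0.26 CPM in MOZ-TIF2 cells (15 and 9 counts), against 55.5 and 13.9 CPM in differentiated and 22.6 and 20.1 CPM in fresh cells. The MOZ-TIF2 libraries were far below all 4 others, and the 2 differentiated libraries lay on either side of the fresh ones. The log2 difference was -5.96 against fresh cells (SE 0.79, adjusted p = 0.00664) and -6.66 against differentiated cells (SE 0.81, adjusted p = 0.00297). Without fresh replicate 1 the adjusted p against fresh cells was 0.0517 (-5.90). The difference from differentiated cells was -5.35 without differentiated replicate 1 and -7.34 without replicate 2, and stayed called. Between differentiated and fresh cells Ccnd1 was not called with all libraries, was called higher without differentiated replicate 2 (1.38, adjusted p = 0.0329), and stood at -0.60 without replicate 1 (adjusted p = 0.315). Ccnd2, the cyclin D that KIT and cytokine signals raise in blood cells, read 179.8 and 175 CPM in MOZ-TIF2, 1114 and 993 CPM in differentiated and 122 and 129 CPM in fresh cells. No groups overlapped, and the differentiated libraries were several-fold above the rest. It was lower in MOZ-TIF2 than in differentiated cells (log2 -2.57, SE 0.23, adjusted p = 0.00097) and higher in differentiated than in fresh cells (3.07, SE 0.23, adjusted p = 0.000864). Against fresh cells the difference of 0.50 in MOZ-TIF2 cells was not called by edgeR (adjusted p = 0.138), while DESeq2 called it higher (0.48, adjusted p = 0.0242). Ccnd3 read 109 and 263 CPM in MOZ-TIF2, 255 and 267 CPM in differentiated and 409 and 378 CPM in fresh cells. Its MOZ-TIF2 libraries differed by more than those of the other groups, and no comparison called it by edgeR with all libraries in the fit. DESeq2 called it lower in MOZ-TIF2 than in fresh cells (-1.10, adjusted p = 0.0422). An edgeR fit of only the differentiated and fresh groups called it lower in differentiated cells (-0.61, adjusted p = 0.0461). Without MOZ-TIF2 replicate 2 Ccnd3 was called lower against fresh (-1.85, adjusted p = 0.0117) and against differentiated cells (-1.26, adjusted p = 0.0189). So D cyclin RNA was spread differently over the 3 groups, with Ccnd1 nearly missing from MOZ-TIF2 cells while Ccnd2 and Ccnd3 were present.

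Among the kinases, Cdk4 read 323 and 214 CPM in MOZ-TIF2, 143 and 216 CPM in differentiated and 418 and 382 CPM in fresh cells. It was lower in differentiated than in fresh cells (log2 -1.16, SE 0.31, adjusted p = 0.0300), and the MOZ-TIF2 libraries lay below the fresh ones without a call (-0.58, adjusted p = 0.221). The Cdk4 call was lost without differentiated replicate 1 (-0.88, adjusted p = 0.123), fresh replicate 1 (-1.09, adjusted p = 0.169) or fresh replicate 2 (-1.22, adjusted p = 0.124). Cdk6 read 405 and 501 CPM in MOZ-TIF2, 402 and 363 CPM in differentiated and 293 and 370.1 CPM in fresh cells, with both MOZ-TIF2 libraries above both fresh ones. The log2 difference between MOZ-TIF2 and fresh cells was 0.45 (SE 0.24, adjusted p = 0.223).

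The inhibitors divided in a different way. Cdkn1b read 38.4 and 84.1 CPM in MOZ-TIF2, 113 and 88.3 CPM in differentiated and 40.8 and 44.6 CPM in fresh cells. With 1 library left out its log2 difference in MOZ-TIF2 cells ran from -1.38 to -0.26 against differentiated cells, and the -1.38 was without MOZ-TIF2 replicate 2. Against fresh cells it ran from -0.15 without MOZ-TIF2 replicate 2 to 0.98 without MOZ-TIF2 replicate 1. The MOZ-TIF2 libraries lay on either side of the fresh ones, and differentiated cells were higher than fresh cells (log2 1.23, SE 0.38, adjusted p = 0.0444), a call that leaving out any of these 4 libraries ended (adjusted p = 0.0764 to 0.209). Cdkn2c, the gene of p18, read 0.60 and 3.56 CPM in MOZ-TIF2, 23.7 and 53.1 CPM in differentiated and 44.3 and 53.02 CPM in fresh cells. It was lower in MOZ-TIF2 cells than in fresh (log2 -4.55, SE 0.86, adjusted p = 0.0170) and in differentiated cells (-4.21, SE 0.85, adjusted p = 0.0153). The first call was lost without fresh replicate 1 (-4.72, adjusted p = 0.0969) or 2 (-4.41, adjusted p = 0.0932), and the second without differentiated replicate 2 (-3.52, adjusted p = 0.0522). The size rested on the MOZ-TIF2 libraries: without replicate 1 it was -3.77 against fresh and -3.44 against differentiated cells, and without replicate 2 it was -6.32 and -5.99, all called. Cdkn2d, the gene of p19INK4d, read 13.7 and 30.3 CPM in MOZ-TIF2, 24.7 and 37.4 CPM in differentiated and 43.2 and 35.9 CPM in fresh cells. With all libraries it was called by edgeR in no comparison. Its log2 difference between MOZ-TIF2 and fresh cells was -0.84. With 1 library left out it ran from -1.52 to -0.38, and the -1.52 was without MOZ-TIF2 replicate 2.

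Cdkn2a and Cdkn2b, which share a locus (chr4:89274473-89294619 and chr4:89306289-89311032 on GRCm38), were high in differentiated cells alone. Cdkn2a read 0.41 and 3.68 CPM in MOZ-TIF2 and 91.6 and 34.8 CPM in differentiated cells, and fresh cells held 1 count in each library. Summed over the libraries this was 902 times more in differentiated than in fresh cells (95% counting interval 249 to 7449; 2925 against 2 counts) and 30.6 times more in MOZ-TIF2 than in fresh cells (8.31 to 255; 141 against 2 counts). MOZ-TIF2 replicate 2 held 126 of the 141 counts, and the ratio was 56.5 without replicate 1 and 6.30 without replicate 2. Without differentiated replicate 1 the ratio of differentiated to fresh cells was 535. The test called it higher in differentiated than in fresh cells (adjusted p = 0.00565) and lower in MOZ-TIF2 than in differentiated cells (log2 -4.95, SE 1.04, adjusted p = 0.0174), but not between MOZ-TIF2 and fresh cells (adjusted p = 0.0702). That last difference was called by DESeq2 (adjusted p = 0.00224), with no filter on low counts (0.0258) and without MOZ-TIF2 replicate 1 (0.0160). Cdkn2b, the gene of p15, had 4 and 14 counts in MOZ-TIF2, 279 and 97 counts in differentiated and 0 counts in both fresh libraries. In differentiated cells it was 77.3-fold higher than in fresh cells with the fresh group set at a floor of 3 counts, and 34.4-fold without differentiated replicate 1. These are ratios at an assumed count and no bounds. With the observed 0 fresh counts the lower end of the 95% counting interval was 62.5 over both libraries and 27.4 without replicate 1. The test called it higher there (adjusted p = 0.0106), and it was lower in MOZ-TIF2 than in differentiated cells (log2 -4.99, SE 1.10, adjusted p = 0.0265). The Cdkn2a and Cdkn2b calls against fresh cells were lost without either fresh library (adjusted p = 0.0618 to 0.0645), and the calls against differentiated cells were lost without differentiated replicate 1 (-4.10, adjusted p = 0.0681 for Cdkn2a; -3.69, adjusted p = 0.0808 for Cdkn2b). Without MOZ-TIF2 replicate 1 the differences from differentiated cells were -4.10 for Cdkn2a, still called, and -4.33 for Cdkn2b (adjusted p = 0.0757), and without replicate 2 they were -7.25 and -6.18, both called. The Cdkn2b difference was -5.67 without differentiated replicate 2. Counts were deposited per gene, so transcripts for p16 and for ARF could not be told apart.

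The partners of these genes gave the setting. Of 39 listed genes of the same pathway, 2 were higher and 7 lower in MOZ-TIF2 than in fresh cells, a share near that of all genes (23.7% called). The 6 with the smallest p were Ccne1, the cyclin that activates CDK2 (23.6 ± 1.65 against 93.7 ± 8.61 CPM, log2 -1.99), the forkhead genes Foxo1 (-2.67) and Foxo3 (1.47), the polycomb methyltransferase gene Ezh2 (-1.16), E2f4 (-1.39) and Cdkn1a, which encodes the inhibitor p21 (2.77). Leaving out fresh replicate 2 ended all 6 of these calls, and leaving out fresh replicate 1 ended 5, all but that of Ccne1 (highest adjusted p = 0.149). Against differentiated cells 9 were higher and 6 lower (29.5% of all genes called), among them Cdc25a, the phosphatase gene that removes inhibitory phosphates from CDK2 (84.6 ± 1.41 against 20.4 ± 3.92 CPM, 2.05), Cdk2 (1.37) and Ccne1 (1.24). Foxo1 (-2.40), the pocket protein gene Rbl2 (-1.34) and Stat5a (-1.47) were lower. Between differentiated and fresh cells 8 rose and 16 fell (40.7% of all genes called), including Ccne1 (-3.23), Cdc25a (-2.22), E2f4 (-1.87) and Tfdp2 (-1.53), while Foxo3 (1.82) and Rbl2 (1.85) rose. The 21 genes of S phase and mitosis summed to 4399 to 5167 CPM in MOZ-TIF2, 1680 to 2948 CPM in differentiated and 5714 to 5960 CPM in fresh cells. Of these, 4 were higher in MOZ-TIF2 than in differentiated cells, 1 was higher and 1 lower than in fresh cells, and 11 were lower in differentiated than in fresh cells. MOZ-TIF2 cells thus had low Ccnd1 beside a sum of dividing-cell RNA between those of the other groups.

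The 2 lines were compared in each treatment, to see how adding EYA1 to HOXA9 bears on these genes, and each line with and without benzarone, which targets the EYA proteins. Few of these genes were called: of the 9 tested, Ccnd1 was lower in the EYA1+HOXA9 line in both treatments, Cdkn2c was higher with benzarone in that line, and no gene was called with benzarone in the HOXA9 line. Between the lines 1 of the 9 was called in DMSO, lower, beside 22.9% of 13375 genes (12.1% higher, 10.8% lower), and 1 in benzarone, lower, beside 25.3% (15.2% higher, 10.1% lower). With benzarone in the EYA1+HOXA9 line 1 of the 9 was called, higher, beside 29.4% (17.0% higher, 12.4% lower). Cdkn2b had 1 to 18 counts in each library and was left out by the filter on low counts. Markers of maturation also differed. The granulocyte progenitor list summed to 5095 to 6934 CPM with benzarone and 7550 to 7979 CPM in DMSO in the EYA1+HOXA9 line, and to 11670 to 12910 and 12600 to 14390 CPM in the HOXA9 line. Of its 7 genes 4 were lower and 1 higher with benzarone in the EYA1+HOXA9 line, and 3 were lower by the interaction. The late neutrophil list summed to 78.6 to 186 and 225 to 276 CPM in the EYA1+HOXA9 line and 828 to 3108 and 741 to 2589 CPM in the HOXA9 line, with 0 of 7 genes called for benzarone by edgeR in either line (2 in the EYA1+HOXA9 and 0 in the HOXA9 line at an unadjusted p under 0.05) and 5 and 6 lower in the EYA1+HOXA9 than in the HOXA9 line in DMSO and in benzarone. The monocyte and macrophage list went the other way between the lines. It summed to 4420 to 5712 CPM with benzarone and 4988 to 6208 CPM in DMSO in the EYA1+HOXA9 line. In the HOXA9 line the sums were 3011 to 4142 and 3085 to 3771 CPM. Of its 7 tested genes 3 were higher and 0 lower with benzarone in the EYA1+HOXA9 line. Between the lines 1 was higher and 1 lower in DMSO, and 2 higher and 0 lower in benzarone. Hoxa9 RNA differed as well by edgeR. It was higher in the EYA1+HOXA9 than in the HOXA9 line in DMSO (log2 0.92, adjusted p = 0.00477) and in benzarone (2.73, adjusted p = 2.17e-06). With benzarone it rose in the EYA1+HOXA9 line (1.87), and the interaction called it (1.81, adjusted p = 0.0045). The part of these lists and of the Hoxa9 level in the results was not tested.

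**Figure D2:**
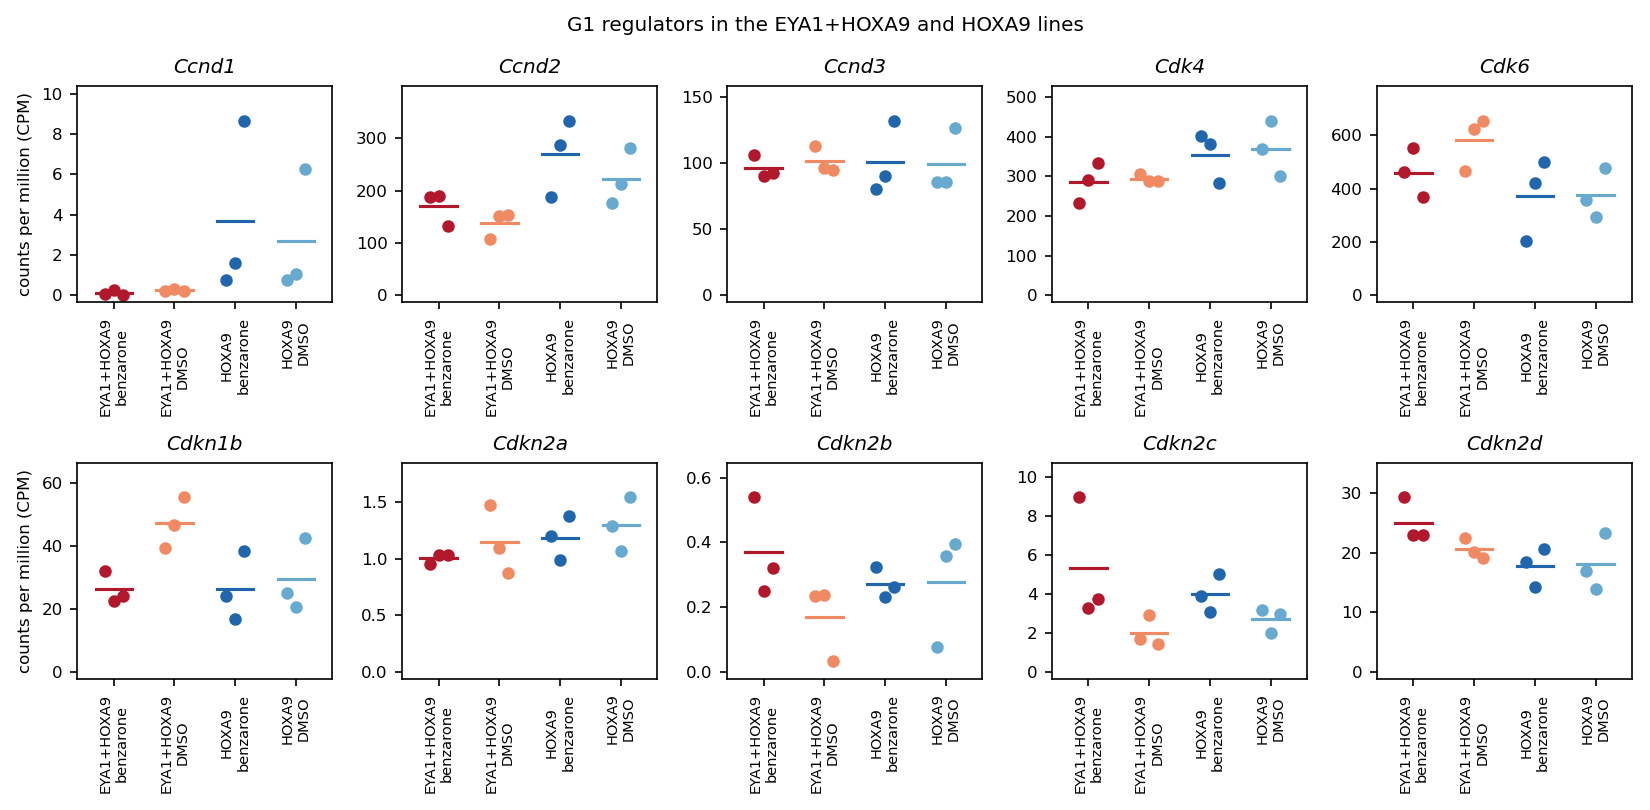
CPM (vertical axis, linear, each gene on its own scale) of the 10 genes in the EYA1+HOXA9 and HOXA9 lines, each in benzarone and in DMSO. Points are the 3 libraries of a group in order of replicate and horizontal lines their mean; Ccnd1 lies below 0.4 CPM in all EYA1+HOXA9 libraries and reaches 8.65 CPM in HOXA9 replicate 3.

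In DMSO, Ccnd1 read 0.20, 0.33 and 0.24 CPM in the EYA1+HOXA9 line and 0.78, 1.07 and 6.29 CPM in the HOXA9 line. The lines did not overlap, and HOXA9 replicate 3 stood well above the rest. The log2 difference was -3.39 (SE 1.08, adjusted p = 0.0403), and without that library it was -1.84 (adjusted p = 0.189). Leaving out any one of the EYA1+HOXA9 libraries in DMSO also ended the call (adjusted p = 0.0897 to 0.127). In benzarone Ccnd1 read 0.09, 0.28 and 0 CPM in the EYA1+HOXA9 line and 0.78, 1.61 and 8.65 CPM in the HOXA9 line, again without overlap and with replicate 3 highest. The log2 difference was -4.81 (SE 1.18, adjusted p = 0.0103), with an adjusted p of 0.0532 without EYA1+HOXA9 replicate 1. Without HOXA9 replicate 3 it was -3.19 (adjusted p = 0.0411), and without EYA1+HOXA9 replicate 2 it was -6.13 (adjusted p = 0.0207). These levels rest on 0 to 11 counts a library in the EYA1+HOXA9 line.

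Ccnd2 lay lower in the EYA1+HOXA9 line at the edge of the threshold. It read 108, 152 and 153 CPM there in DMSO, against 177, 212 and 281 CPM in the HOXA9 line (log2 -0.70, SE 0.24, adjusted p = 0.0524). In benzarone it read 188, 189 and 133 CPM, against 188, 288 and 333 CPM (-0.67, SE 0.24, adjusted p = 0.0575). Neither comparison passed, although the groups in DMSO did not overlap. DESeq2 called both (adjusted p = 0.0328 in DMSO and 0.0370 in benzarone). Ccnd3 lay at 95.1 to 113 CPM in the EYA1+HOXA9 line and 85.9 to 127 CPM in the HOXA9 line in DMSO, a log2 difference of 0.03 (SE 0.19). Cdk4 (-0.33, SE 0.17) and Cdk6 (0.63, SE 0.29) were not called in DMSO (adjusted p = 0.180 and 0.135), nor in benzarone (-0.32 and 0.30, adjusted p = 0.213 and 0.492).

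Of the inhibitors, Cdkn2c read 8.95, 3.27 and 3.72 CPM with benzarone in the EYA1+HOXA9 line, against 1.71, 2.93 and 1.42 CPM in DMSO. All 3 benzarone libraries were above all 3 DMSO libraries, and replicate 1 was the highest. The log2 difference was 1.39 (SE 0.41, adjusted p = 0.0226), and it was 0.77 without benzarone replicate 1 (adjusted p = 0.145). Without DMSO replicate 1 (1.29, adjusted p = 0.0649) or 3 (1.19, adjusted p = 0.0985) it was not called either. In the HOXA9 line Cdkn2c read 3.90, 3.09 and 5.03 CPM with benzarone and 3.17, 1.99 and 2.98 CPM in DMSO (0.56, SE 0.40, adjusted p = 1). The difference between the lines in this response was 0.83 (SE 0.57) and was not called. Cdkn1b in the EYA1+HOXA9 line read 31.9, 22.6 and 24.1 CPM with benzarone, against 39.5, 46.6 and 55.4 CPM in DMSO. Its groups did not overlap, and the log2 difference of -0.85 (SE 0.31) had an adjusted p of 0.0558. DESeq2 (adjusted p = 0.0283) and a fit of these groups alone (adjusted p = 0.00866) called it lower. Cdkn2a stayed near 1 CPM in all 4 groups (1.01 ± 0.05 and 1.15 ± 0.30 CPM in the EYA1+HOXA9 line with benzarone and DMSO, 1.19 ± 0.20 and 1.30 ± 0.24 CPM in the HOXA9 line; SD, n = 3 each). Cdkn2d averaged 25.1 ± 3.66 and 20.6 ± 1.71 CPM in the EYA1+HOXA9 line and 17.8 ± 3.28 and 18.1 ± 4.81 CPM in the HOXA9 line, in the same order.

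With benzarone in the HOXA9 line edgeR called 0 of 13375 genes (0% background), while 232 genes and none of the 9 had an unadjusted p under 0.05, and DESeq2 called 14 genes and none of the 9. Same-numbered HOXA9 libraries deviated together, and with the replicate number as a block within each line 11 genes and none of the 9 were called. The interaction of line and benzarone called none of the 9 and 7.54% of genes (4.71% higher, 2.83% lower), so no difference in response between the lines was detected for them at this replication. It called 4 of the 39 pathway genes, all with a lower value in the EYA1+HOXA9 line: the p27 ligase gene Skp2, Ccne2, Cdc25a and Myc. With benzarone in the EYA1+HOXA9 line 4 of the 39 rose and 9 fell (29.4% of all genes called), among them Skp2 (13.4 ± 3.92 against 32.8 ± 1.98 CPM, log2 -1.29), Ccne2 (-1.004), Myc (-1.24), Cdc25a (-0.52) and E2f3 (-0.80), with Cdkn1a higher (0.63). The Cdkn1a call was lost without DMSO replicate 3 or benzarone replicate 1 (highest adjusted p = 0.072). Between the lines in DMSO 3 were higher and 4 lower in the EYA1+HOXA9 line, beside 22.9% of all genes (E2f2 1.30, Tfdp2 0.74, Myc 0.69, Stat5a -0.40, Cdkn1a -0.60 and Ccna2 -0.49). Of these only the E2f2 call was kept whichever DMSO library was left out (highest adjusted p of the others 0.131). In benzarone 5 were higher and 9 lower, beside 25.3% of all genes (Cdc25a -0.84, Skp2 -1.34, Ccne2 -1.07, Tfdp1 -0.75, Ccne1 -0.74 and Cdkn1c 2.44). The Cdkn1c difference rests on few counts, at 1.38 ± 0.44 CPM in the EYA1+HOXA9 and 0.25 ± 0.14 CPM in the HOXA9 line (SD, n = 3 each). The S phase and mitosis sum was 3762 to 4167 CPM with benzarone and 4235 to 4277 CPM in DMSO in the EYA1+HOXA9 line, and 4438 to 5244 and 4422 to 5368 CPM in the HOXA9 line. None of its 21 genes was called for benzarone in either line, while 7 were lower in the EYA1+HOXA9 than in the HOXA9 line in DMSO and 8 in benzarone.

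**Figure D3:**
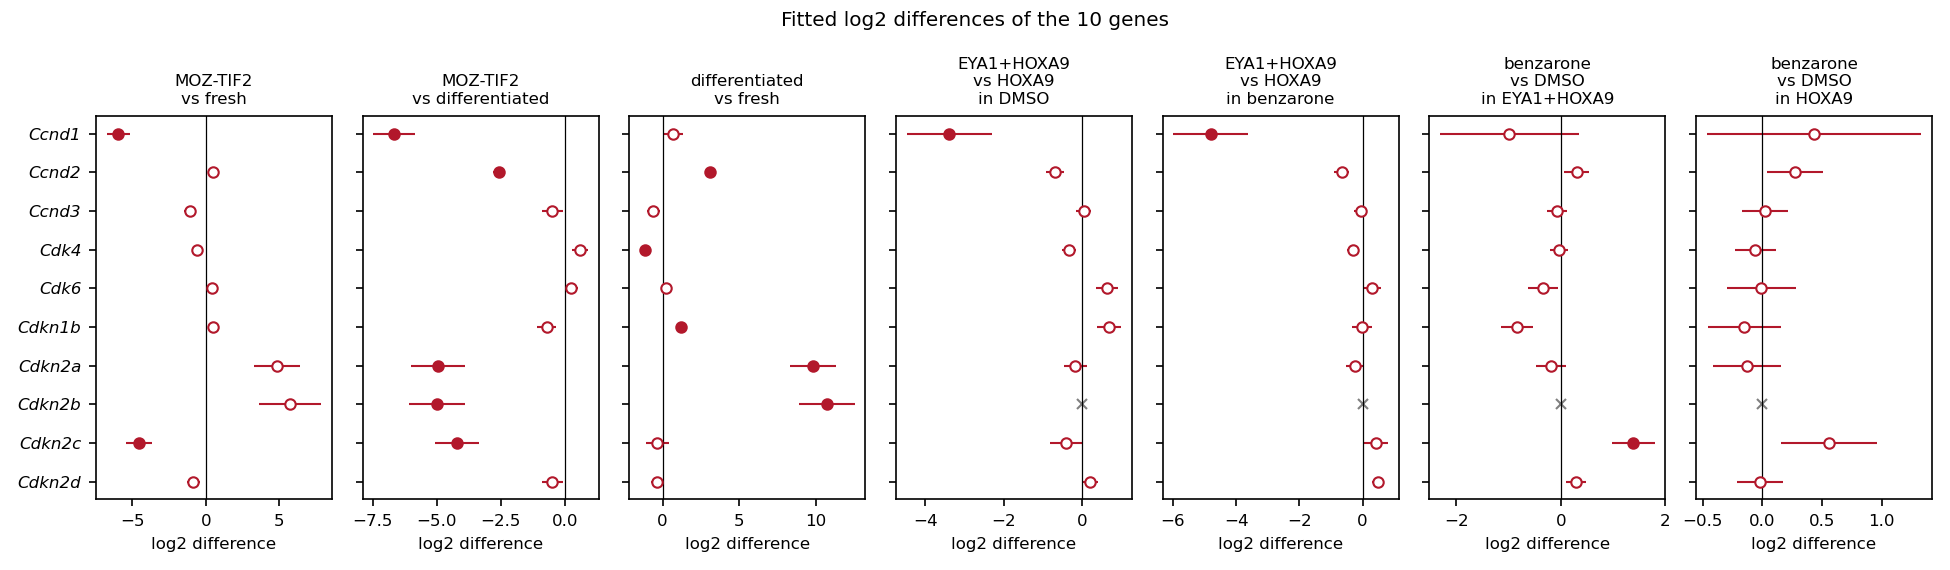
Fitted log2 differences (horizontal axis, each panel on its own scale, bars ± SE) of the 10 genes in the 7 bulk comparisons, first-named group minus second. Filled points have an adjusted p below 0.05 and a grey cross marks Cdkn2b, not tested in the lines; fitted values against fresh cells for Cdkn2a and Cdkn2b, with 2 and 0 counts there, are no bounds, and Ccnd1 is filled in 4 panels.

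Over the 12 line libraries the genes with a level most like each of the 9, by Pearson r of log2 CPM among 8892 genes averaging at least 10 CPM, were as follows; the libraries share line, treatment and replicate structure, so r is a description. Cdk4 ran with Tcp1 (r = 0.990) and Prmt1 (0.983). Cdk6 ran with Rbm33 (0.987) and Ago2 (0.986). Ccnd1 ran with Shkbp1 (0.976), Ccnd2 with Ptbp3 (0.952), Ccnd3 with Fam114a1 (0.972) and Cdkn1b with Tecpr2 (0.968). For the INK4 genes r was 0.884 for Cdkn2a and Tradd, 0.905 for Cdkn2c and Armc7 and 0.945 for Cdkn2d and Pias1. Group means were only 1.01 to 1.30 CPM for Cdkn2a and 2.02 to 5.31 CPM for Cdkn2c. Those of Ccnd1 were 0.12 and 0.25 CPM in the EYA1+HOXA9 line. The part of low counts in these r was not tested.

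Single MOZ-TIF2 cells in culture were followed over 5 days of benzarone, with UMIs summed over the cells of each condition. Ccnd1 and Ccnd2 were higher and Cdk4 and Cdk6 lower on day 5 in benzarone than in DMSO, whereas on day 1 none of the 7 genes differed by 1.5-fold. With 1 sample a condition there is no test, and the 95% intervals cover counting error only. On day 5 the genes past 1.5-fold were 5 of 8, where 51.9% of the 10261 genes with 100 UMIs or more in both conditions together were past it (23.7% higher, 28.2% lower), and of the 5 genes 3 were higher and 2 lower. On day 1, 0 of 7 were past it beside 1.74% of genes (0.838% higher, 0.901% lower), and between days 3 and 1 in benzarone 1 of 7 was higher beside 5.77% (4.99% higher). The median log2 ratio of all genes on day 5 was -0.13, so ratios there can be read against that shift.

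Ccnd1 read 4.65 CPM in benzarone and 3.79 CPM in DMSO on day 1, 13.4 CPM in benzarone on day 3, and 66.1 CPM in benzarone and 8.96 CPM in DMSO on day 5. The day 5 ratio was 7.38 (6.60 to 8.26), and the day 3 level was 2.87 times that of day 1 in benzarone (2.41 to 3.44). Day 3 had no DMSO sample, so the change in benzarone from day 1 cannot be told apart from time in culture. Ccnd2 read 180.4 and 151 CPM on day 1 in benzarone and DMSO, 246 CPM on day 3, and 401 and 154 CPM on day 5 (ratio 2.61, 2.53 to 2.69). Both cyclins had higher levels on each later day in benzarone. In DMSO Ccnd1 was also higher on day 5 (8.96 CPM) than on day 1 (3.79 CPM), while the Ccnd2 levels lay close. Day 5 came from another sample, with CPM over 11662 listed genes against 9448 for days 1 and 3. Ccnd3 ran nearly level at 151, 155 and 136 CPM in benzarone on days 1, 3 and 5, against 173 and 113 CPM in DMSO on days 1 and 5.

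**Figure D4:**
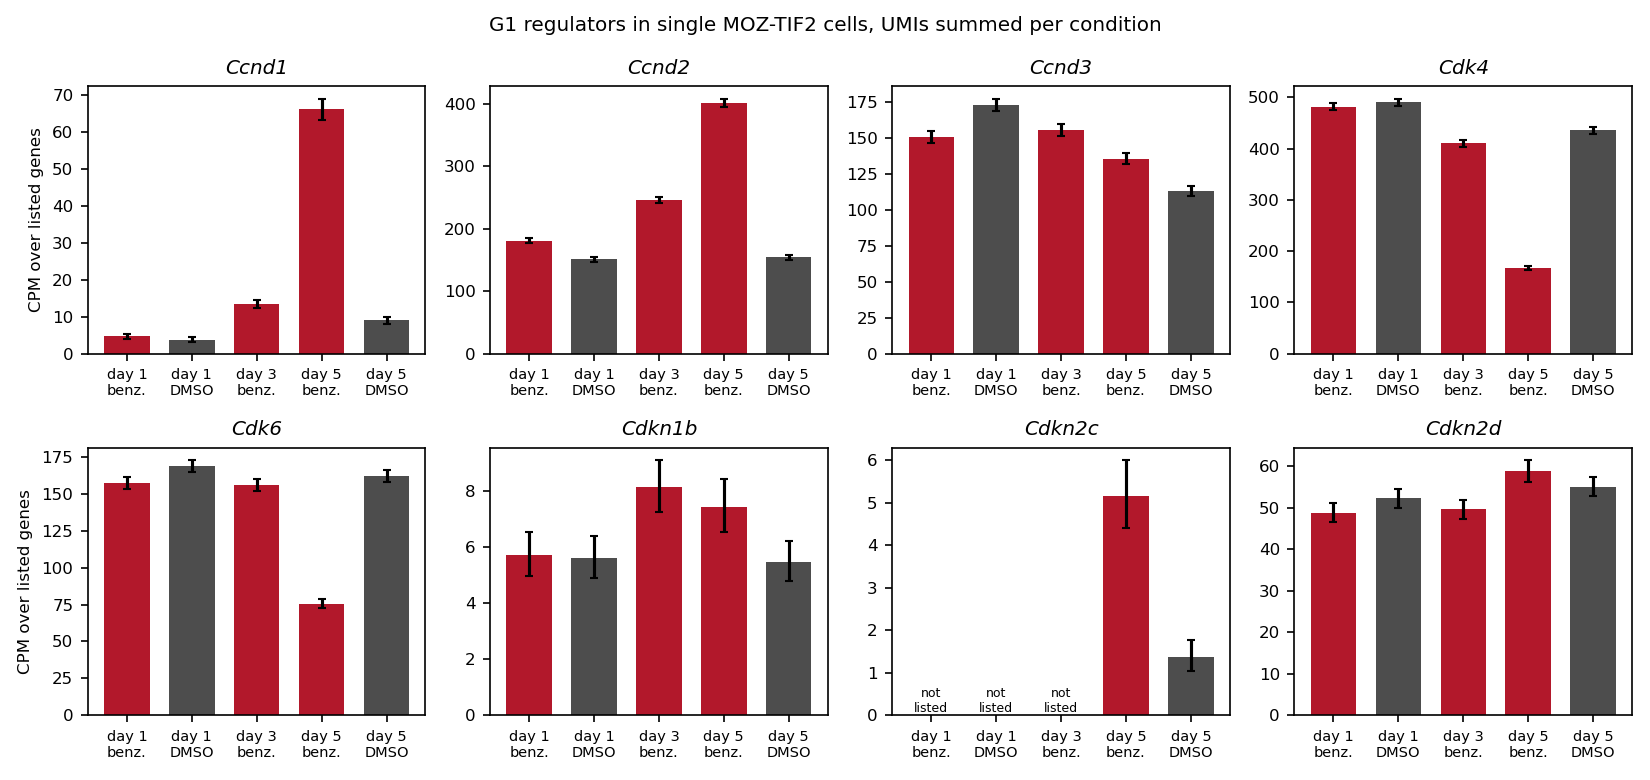
CPM over the listed genes (vertical axis, linear from 0, each gene on its own scale) of the 8 genes listed in single MOZ-TIF2 cells, by day and treatment (red benzarone, grey DMSO). Error bars are 95% Poisson intervals of the summed UMIs, which cover counting error only; Ccnd1 and Ccnd2 are highest and Cdk4 and Cdk6 lowest on day 5 in benzarone.

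Cdk4 read 482 and 490.3 CPM on day 1 in benzarone and DMSO, 410.4 CPM in benzarone on day 3, and 167 and 436 CPM on day 5. The day 5 ratio was 0.384 (0.372 to 0.395). Cdk6 read 158 and 169 CPM on day 1, 156 CPM on day 3, and 75.6 and 162 CPM on day 5, a ratio of 0.466 (0.445 to 0.488). Both kinases were lower in benzarone on day 5 and lay near their DMSO levels on day 1. Cdkn2c read 5.16 CPM (167 UMIs) in benzarone and 1.37 CPM (57 UMIs) in DMSO on day 5, a ratio of 3.76 (2.77 to 5.17). Cdkn1b was low throughout, at 5.72, 8.14 and 7.45 CPM in benzarone on days 1, 3 and 5 and 5.61 and 5.47 CPM in DMSO on days 1 and 5. Cdkn2d held between 48.8 and 58.7 CPM in all 5 conditions (day 5 ratio 1.07, 1.00 to 1.14). The 2 conditions of day 5 shared a library, and between the day 1 and 3 libraries and day 5 there were 9 shared barcodes, with 3 among the day 1 and 3 libraries themselves.

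Of 38 pathway genes with enough UMIs on day 5, 6 were higher past 1.5-fold and 18 lower, beside 23.7% of all genes higher and 28.2% lower. On day 1 none of 36 was past it, beside 1.74% of all genes. Between day 3 and day 1 in benzarone 1 of 36 was past it, Cdkn1a at 389 against 189.6 CPM. On day 5 Cdkn1a read 595 CPM in benzarone and 102 CPM in DMSO, Mdm2 87.8 and 28.4 CPM, and Rb1 16.8 and 5.98 CPM. Lower in benzarone were Skp2 (5.38 against 12.9 CPM), Ccne1 (25.1 against 47.7 CPM) and Ccna2 (57.9 against 110.5 CPM). These pathway genes were picked after their values were seen, among those past 1.5-fold. The S phase and mitosis genes summed to 1086 CPM in benzarone and 2418 CPM in DMSO on day 5. Markers moved too: the granulocyte progenitor list summed to 1364 and 9167 CPM, monocyte and macrophage genes to 923 and 170 CPM, and megakaryocyte genes (3 of 6 listed) to 7436 and 217 CPM. Late neutrophil genes summed to 20380 and 10240 CPM, and stem and progenitor genes (5 of 7 listed) to 427 and 51.7 CPM. The part of this shift in the levels of the G1 genes was not tested.

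Cells of day 5 were split into tertiles, groups of equal size, by the share of their UMIs in the 21 S phase and mitosis genes, which hold none of the 10 genes. Splits by the granulocyte progenitor and by the monocyte and macrophage lists were also made, and their levels are not reported here. In benzarone Cdkn2c read 0.31 CPM (3 UMIs) in the low tertile, 1.57 CPM in the middle and 12.02 CPM (10.2 to 14.1) in the high tertile. In DMSO it read 0.25, 1.80 and 1.84 CPM from low to high, so the levels stood apart in the cells richest in dividing-cell RNA. Cdkn2d also read highest in the high tertile, with 42.8, 41.8 and 85.4 CPM from low to high in benzarone and 45.4, 46.9 and 69.2 CPM in DMSO. Ccnd1 read 77.1, 77.2 and 48.2 CPM from low to high in benzarone, against 5.47, 10.4 and 10.4 CPM in DMSO, and was higher in benzarone in every tertile. Cdk4 read 131, 155 and 205 CPM from low to high in benzarone, against 395, 451 and 452 CPM in DMSO. Cdk6 read 62.0, 68.5 and 92.3 CPM in benzarone, against 150.4, 173 and 161 CPM in DMSO. In each tertile the kinases were lower in benzarone than in DMSO. The tertiles differ in depth, with a median of 18113 UMIs a cell in the low and 23527 in the high tertile in benzarone, and 21254.5 and 28023 in DMSO. A tertile of the benzarone cells holds less dividing-cell RNA than a tertile of the DMSO cells of the same rank (2265 against 3056 CPM in the high tertiles).

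**Figure D5:**
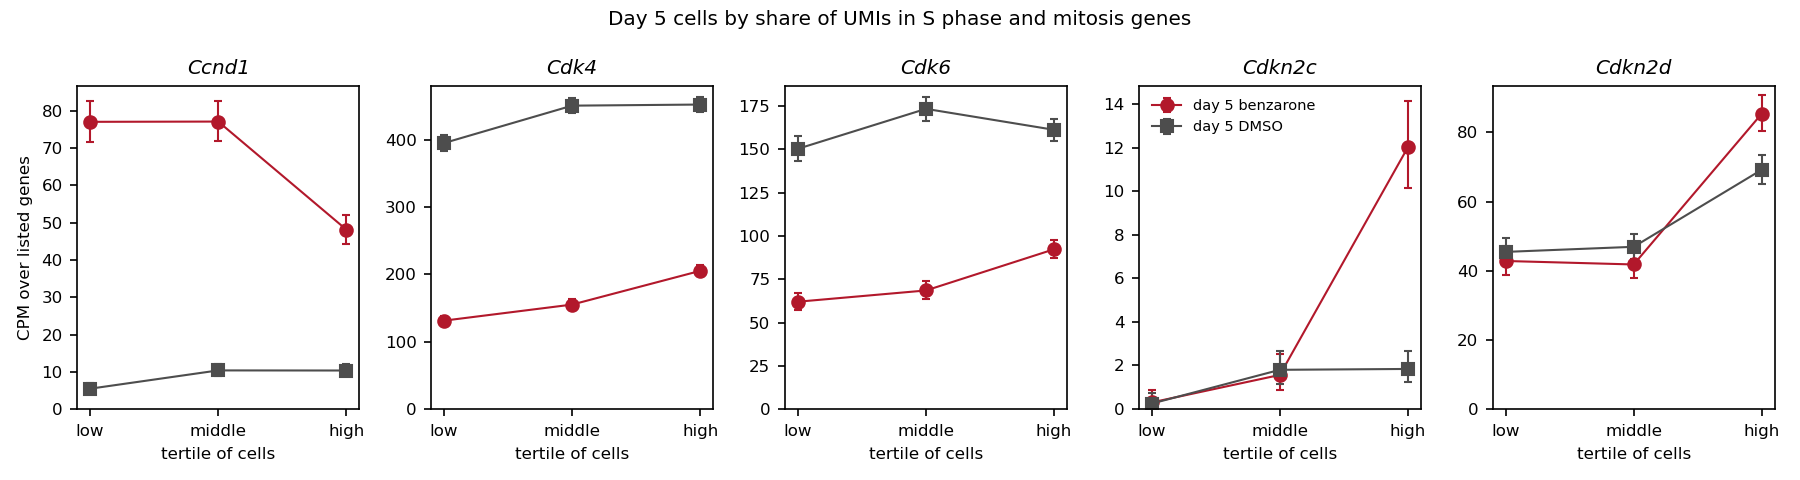
CPM over the listed genes (vertical axis, linear from 0) of 5 genes in tertiles of the day 5 cells, ranked within each condition by the share of UMIs in S phase and mitosis genes (red circles benzarone, grey squares DMSO). Bars are 95% Poisson intervals, counting error only; Cdkn2c is highest in the high tertile in benzarone (12.02 CPM), while Cdk4 and Cdk6 are lower in benzarone in every tertile.

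Levels are not compared between genes in bulk, since the tables give no transcript lengths. The deposited values of Ccnd3 and Cdk6 were fractional, so these genes may share reads with others, and their values are less certain. Ccnd1 overlaps Lto1, Ccnd2 9330179D12Rik, Ccnd3 Bysl and Gm41590, Cdk4 Tspan31, Cdk6 Gm36470 and Gm29868, and Cdkn2b Gm12610, and whether counting used the strand is not given in the sources used here, so values of these genes may hold reads of the neighbour.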

How the data were processed

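Bulk RNA was deposited as estimated counts per gene; Salmon 0.13.0 is named in the submitters' processing notes, and the libraries were strand-specific and poly(A)-selected per the labels' protocols. They were rounded to whole counts. Single-cell RNA (10x 3′ version 2 per the labels; Cell Ranger 3.0.0 in the processing notes) was deposited by the authors as UMI counts per gene and cell, with a condition for each cell. Cells were used as deposited; doublets were not called here. The Ty1 peak intervals were deposited per sample without scores; starts are printed 1-based, on a 50 bp grid. The caller is not given in the sources used here. The acetylated histone and input samples were not analysed here.

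Counts were tested with edgeR 4.0.16 (R 4.3.3; TMM, filterByExpr, quasi-likelihood F test, all groups of a table in one fit) with Benjamini-Hochberg adjustment over 15224 or 13375 genes and a threshold of 0.05; the scripts were tested on simulated data. Alternatives were DESeq2 1.42.0, other size factors, no filter, only the groups compared, a replicate block and each library left out. A block within each line was chosen after seeing the data. Same-numbered HOXA9 libraries deviated together (r = 0.252, 0.262 and 0.495), and their numbers were taken to pair them for that block. The labels give no basis for this. Differently numbered libraries of different lines reached an r of 0.225 (EYA1+HOXA9 benzarone replicate 1 and HOXA9 DMSO replicate 3), so such r cannot settle the pairing. UMI sums have exact Poisson intervals (95%), and ratios conditional exact intervals, for counting error only. A 1.5-fold change among genes with 100 UMIs or more was used as a description. Named pathway genes were up to 6 called genes per comparison with the smallest p. The members and lists were chosen with earlier results of these data known.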

Additional observations from a re-analysis of the deposited data

Results flagged for a closer look

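Of the 39 G1 pathway genes listed, 4 had a benzarone response that differed between the lines by the interaction term of edgeR's quasi-likelihood test. Differences are given as EYA1+HOXA9 minus HOXA9. That term called 7.54% of all 13375 genes, so the count of 4 is a description only. Skp2, a subunit of the ligase that marks p27 for destruction, averaged 13.4 ± 3.92 CPM with benzarone and 32.8 ± 1.98 CPM in DMSO in the EYA1+HOXA9 line, and 33.9 ± 2.97 and 36.9 ± 0.34 CPM in the HOXA9 line (SD, n = 3 each). Its log2 difference in response was -1.17 (SE 0.23, adjusted p = 0.0130), and the call was kept without any one of the 12 libraries. Ccne2, an E cyclin, averaged 20.5 ± 4.57 and 41.1 ± 4.21 CPM in the EYA1+HOXA9 line and 42.8 ± 5.37 and 44.3 ± 2.66 CPM in the HOXA9 line (-0.95, adjusted p = 0.0233). Leaving out 3 of the 12 libraries, one at a time, ended its call (highest adjusted p = 0.0662). Cdc25a averaged 51.0 ± 1.47 and 72.9 ± 6.29 CPM, and 91.6 ± 10.1 and 86.8 ± 2.15 CPM (-0.59, adjusted p = 0.0309), and its call ended in 9 of 12 omissions (highest adjusted p = 0.0876). Myc averaged 164 ± 39.6 and 385 ± 72.8 CPM, and 228 ± 36.2 and 239.5 ± 42.5 CPM (-1.17, adjusted p = 0.0319), and its call ended in 7 of 12 (highest adjusted p = 0.0921). None of the 9 tested cyclin, kinase and inhibitor genes was called by this term. Hoxa9 was called by it (log2 1.81, adjusted p = 0.0045), and the part of the Hoxa9 level in these responses was not tested.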

How the results depend on the processing

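Counts of calls moved more than the directions of called genes. Of the 10 genes, against fresh cells DESeq2 called 5 in MOZ-TIF2 cells (2 as reported). In the lines DESeq2 called 2 between the lines in DMSO, 2 in benzarone and 2 for benzarone in EYA1+HOXA9 (1 each as reported); with no filter on low counts the counts were 2 between the lines in benzarone and 2 for benzarone in EYA1+HOXA9, and a fit of only the groups compared gave 2 in DMSO and 2 for benzarone in EYA1+HOXA9. For benzarone in HOXA9, 14 genes were called by DESeq2 and 1 with only the groups compared (0 as reported), and DESeq2 called 1716 genes for the interaction (1009 as reported).

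With the replicate number as a block, 2094 genes were called between MOZ-TIF2 and fresh cells (3602 without), 3 of the 10 between differentiated and fresh cells (5 without), 3 between the lines in DMSO, 2 for benzarone in EYA1+HOXA9, and 6 genes for benzarone in HOXA9; the Cdkn1b difference between the lines in benzarone turned to 0.0715. A replicate block within each line gave 2 of the 10 for benzarone in EYA1+HOXA9, 11 genes in HOXA9 and 1687 for the interaction. Same-numbered MOZ-TIF2, differentiated and fresh libraries (r = -0.0415, -0.0681 and -0.00985) and EYA1+HOXA9 libraries (0.00643, -0.0696 and 0.00214) did not deviate together. Such r cannot settle whether they were paired, and the labels do not say.

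Leaving out each library in turn gave 374 to 3181 genes and 0 to 4 of the 10 for MOZ-TIF2 against fresh, 2847 to 4278 and 3 to 7 against differentiated, 1259 to 4891 and 1 to 5 for differentiated against fresh, 1735 to 3486 and 0 to 2 between the lines in DMSO, 2211 to 3596 and 0 to 2 in benzarone, 2353 to 3923 and 0 to 1 for benzarone in EYA1+HOXA9, 0 to 1 and 0 in HOXA9, and 408 to 1182 and 0 for the interaction; the cause was not tested.

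Log2 differences that changed sign had not been called. Without one library they ran from -0.069 to 0.24 for Ccnd3 between the lines in DMSO, and in benzarone from -0.20 to 0.17 for Ccnd3, -0.26 to 0.36 for Cdkn1b and -0.20 to 0.66 for Cdkn2c. They ran from -1.26 to 0.0059 for Ccnd3 in MOZ-TIF2 against differentiated cells, from -0.15 to 0.98 for Cdkn1b in MOZ-TIF2 against fresh cells, and in differentiated against fresh cells from -0.60 to 1.38 for Ccnd1 and -1.03 to 0.14 for Cdkn2c. For benzarone in EYA1+HOXA9 they ran from -0.16 to 0.010 for Ccnd3, -0.16 to 0.072 for Cdk4 and -0.35 to 0.033 for Cdkn2a. For benzarone in HOXA9 they ran from -1.19 to 1.99 for Ccnd1, -0.22 to 0.23 for Ccnd3, -0.19 to 0.085 for Cdk4, -0.27 to 0.28 for Cdk6, -0.52 to 0.21 for Cdkn1b, -0.25 to 0.011 for Cdkn2a and -0.18 to 0.21 for Cdkn2d. For the interaction they ran from -2.97 to 0.20 for Ccnd1, -0.17 to 0.21 for Ccnd2, -0.31 to 0.15 for Ccnd3, -0.13 to 0.15 for Cdk4 and -0.22 to 0.16 for Cdkn2a. With no filter, Cdk6 for benzarone in HOXA9 was 0.0025, and the interaction was -0.015 for Ccnd2 and -0.025 for Cdk4.

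A shared Ty1 peak was at 5 of the 10 genes within 1 kb, 6 within 50 kb, and 4 when peaks had to overlap over 50% of each. Day 5 ratios past 1.5-fold numbered 4 over genes listed in both single-cell tables, which leave out Cdkn2c, and 5 otherwise.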
